A study of Mus musculus with 24 samples.

Results

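The genes described are those of the collagens, the laminins and the integrins, that is, the proteins of the extracellular matrix and the receptors that bind it. They were chosen by symbol alone. A gene was taken when its symbol had the form of a collagen alpha chain (*Col4a1* and the like), a laminin chain (*Lama5*, *Lamb3*, *Lamc1*) or an integrin subunit (*Itga1*, *Itgb1*). This gave 83 of the 55487 genes in the deposited count table, which were 44 collagen, 11 laminin and 28 integrin genes. One symbol with the integrin form, *Itgbl1*, encodes a protein that is not an integrin subunit, and it had no count in any library.

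Collagens are triple helices of alpha chains. The fibril-forming collagens build the tough fibers of connective tissue and scars, whereas type IV collagen forms the sheet-like network of basement membranes, the thin layer on which epithelial cells sit. Laminins are cross-shaped trimers of an alpha, a beta and a gamma chain, and they are the other main network of that layer. Integrins are receptors made of an alpha and a beta subunit that span the plasma membrane and tie the matrix to the actin cytoskeleton, and the alpha subunit largely sets which matrix protein is bound. In a healthy liver the hepatocytes face little organized basement membrane, and the fibrillar collagen of liver fibrosis is made mainly by hepatic stellate cells.

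RNA came from AML-12 cells, a hepatocyte line made from a mouse transgenic for human TGF-alpha, and was measured by BRB-seq, a pooled bulk method that reads the 3′ end of mRNAs. There were 6 groups of 4 libraries, all cultured without dexamethasone and with serum treated with charcoal and dextran. BSA received the albumin carrier, and PAL received 0.25 mM palmitate, a saturated fatty acid used to model steatosis. The other 4 groups received the same palmitate and, for the last 24 hours, endoribonuclease-prepared small interfering RNA (esiRNA) with lipofectamine. CON received 200 nM against *Egfp*, which these cells lack, BMAL1 received 100 nM against the clock gene *Bmal1*, CHREBP received 100 nM against the lipogenic factor *Chrebp*, and BOTH received the pair at 200 nM in total. PAL against BSA asked what palmitate changed, CON against PAL what transfection changed, and the esiRNA comparisons which genes depended on *Bmal1*, on *Chrebp* or on the pair. Nothing in the labels says whether the 4 libraries of a group came from separate cultures, so that p values measure the spread between these libraries, which may be technical.

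Library totals ran from 5399700 to 11237474 gene counts. On the library plate, column 1 held BSA and PAL, column 2 held CON and BMAL1, and column 3 held the groups with *Chrebp* esiRNA, and the groups of a column were in different rows. Column therefore cannot be told apart from transfection in CON against PAL, nor from *Chrebp* esiRNA in CHREBP or BOTH against CON or BMAL1. Row cannot be told apart from the treatment in PAL against BSA, CON against PAL, BMAL1 against CON, BOTH against CON and BOTH against CHREBP. The esiRNA dose, 100 nM in BMAL1 and CHREBP and 200 nM in CON and BOTH, cannot be told apart from the target in BMAL1 or CHREBP against CON, nor in BOTH against either of these. The BOTH libraries differed among themselves more than those of other groups. Pairs of BOTH libraries had a chi-square per degree of freedom of 6.07 to 24.7 over genes, pairs within the other groups 2.74 to 7.98, and the highest was that of BOTH replicates 2 and 4. *Arntl*, the symbol of *Bmal1* in the table, ran from 30.1 to 57.5 normalized counts in CON and from 22.3 to 32.9 in BMAL1, with a log2 fold change of -0.78 (SE 0.28) and no adjusted p over all genes because of its low counts. *Mlxipl*, the symbol of *Chrebp*, ran from 29.0 to 44.4 in CON and from 22.1 to 32.7 in CHREBP, a log2 fold change of -0.46 (SE 0.28) that did not pass the test (*Padj* = 0.593). In BOTH against CON the log2 fold changes were -0.98 for *Arntl* (SE 0.28, *Padj* = 0.00994) and -1.07 for *Mlxipl* (SE 0.30, *Padj* = 0.00762).

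Of 10 hepatocyte markers, 9 had a mean of at least 1 CPM (the count divided by the library's gene counts, times 1000000), and *Apoa1* was at 0.998. Of 5 cholangiocyte markers, 4 reached that level, *Epcam* being the exception at 0.048 CPM. Of 10 markers of stellate cells or fibroblasts, *Vim* alone reached it, and *Pdgfrb*, *Lrat*, *Thy1* and *Reln* had no count. None of 7 endothelial markers and 1 of 7 macrophage or leukocyte markers (*Cd68*, 1.57 CPM) reached it. Albumin itself was low, with a mean of 20.8 CPM, whereas the keratin *Krt18* had 4086 CPM and *Krt19*, a keratin of bile duct cells, had 346 CPM.

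Of the 83 genes, 24 had no count in any library, which allows a level of up to 0.0161 CPM over the 24 libraries (3 counts of their summed total, counting error only). A further 18 had counts but too few for the test over all groups, and 41 were tested, of which 18 were collagens, 8 laminins and 15 integrins. A mean of at least 10 CPM was reached by 23 genes, 7 of them collagens, 4 laminins and 12 integrins. Of 11 fibril-forming collagens, 5 had no count and 5 a mean below 1 CPM. *Col1a2*, *Col3a1* and *Col5a2*, chains of the main collagens of scar tissue, had no count, and *Col1a1* had a mean of 0.667 CPM. The exception in that class was *Col27a1*, a fibril-forming collagen best known from cartilage, with 94.2 CPM. The 4 collagens with the highest mean CPM were *Col4a1* and *Col4a2*, the ubiquitous chains of basement membrane collagen, *Col18a1*, whose tail is the source of endostatin, and *Col12a1*, a collagen that decorates fibrils.

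Among laminins, *Lama5*, *Lamb2* and *Lamc1*, which together form laminin-521, had means of 159, 153 and 92.0 CPM. *Lamb3*, the beta chain of laminin-332, was present at 28.9 CPM, while *Lama3*, the alpha chain of that trimer, had 4 counts in all 24 libraries. *Lama1* and *Lama2* had none. For integrins, every beta subunit outside the leukocyte class was tested, and *Itgb1*, the common partner of collagen and laminin receptors, had 205 CPM. None of the 8 leukocyte integrins had enough counts for the test. CPM here is not divided by transcript length, since a 3′ library reads about 1 fragment end per molecule, and it is used to say which genes could be measured rather than to rank proteins.

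**Figure D1:**
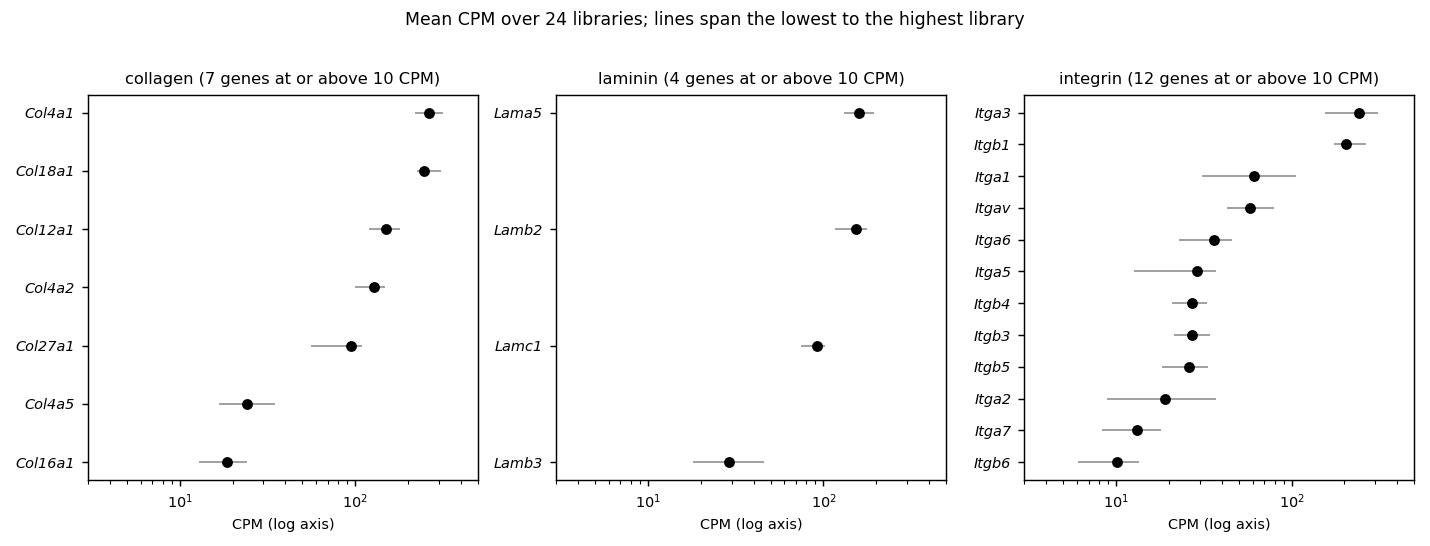
Mean CPM over 24 libraries (log axis) of the 7 collagen, 4 laminin and 12 integrin genes with a mean of at least 10 CPM, with lines from the lowest to the highest library. *Col4a1* at 263 CPM, *Itga3* at 242 CPM and *Lama5* at 159 CPM are at the top of their families.

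With palmitate, 3 of 4 tested type IV collagen chains (*Col4a1*, *Col4a2*, *Col4a5*) and 2 of 3 tested collagen-binding integrin subunits (*Itga1*, *Itga2*) fell, while the laminin-binding integrin *Itga3*, its partner *Itgb1*, and *Col12a1* rose. In PAL against BSA, 12 of the 39 genes tested passed DESeq2 (adjusted p, *Padj*, under 0.1), 3 higher and 9 lower, which is 30.8% of them beside 14.3% of all 12827 genes tested. Fold changes below are on the log2 scale. The share lower was 9 of 39 beside 7.6% of all genes, and the share higher 3 of 39 beside 6.65%. The median log2 fold change was -0.18 for 16 collagens, -0.16 for 8 laminins and 0.12 for 15 integrins, and 0.0048 for all genes tested. All of the 12 changes were smaller than 2-fold. The groups did not overlap for 12 of the 39 genes, beside 15.1% of all genes, and 10 of the called genes were among these. In the same libraries the summed level of the hepatocyte markers ran from 6318 to 6673 CPM in BSA and from 7356 to 7969 CPM in PAL, and that of the cholangiocyte markers from 536 to 602 CPM and from 626 to 723 CPM. Here and below, the hepatocyte sum was mainly *Krt18*, *Krt8* and *Trf*, with means of 4086, 1687 and 900 CPM over the 24 libraries. The part of these marker levels in the result was not tested, and in bulk RNA fewer cells of a type and less RNA per cell cannot be told apart.

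The fall with the smallest *Padj* was that of *Itga1* (ENSMUSG00000042284; GRCm38 chromosome 13, 114953096 to 115101964, − strand), the alpha subunit that with *Itgb1* forms a receptor for collagens, type IV above all. Its normalized counts were 793.9, 658.6, 739.4 and 650.7 in BSA and 345.9, 379.2, 383.5 and 420.6 in PAL. The lowest BSA library was well above the highest PAL library. The log2 fold change was -0.89 (SE 0.09, *Padj* = 6.75e-19), a fall of 45.9%, and it stayed between -0.94 and -0.83 when any 1 library was left out. *Pelo*, a gene that lies within *Itga1* on the same strand, had 1.48 CPM and did not pass the test (log2 fold change 0.22, SE 0.43, *Padj* = 0.849).

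*Itga2* (ENSMUSG00000015533; chromosome 13, 114833081 to 114932100, − strand), the alpha subunit of the other main collagen receptor, lies 20995 bases from *Itga1* and is read in the same direction. Its normalized counts were 278.3, 241.8, 203.8 and 220.7 in BSA and 166.3, 185.1, 165.5 and 171.8 in PAL, again without overlap. The log2 fold change was -0.45 (SE 0.13, *Padj* = 0.00753). The third tested subunit of this class, *Itga10*, was counted too rarely to judge, at a log2 fold change of -0.94 (SE 0.68, *Padj* = 0.466).

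*Itgav*, the alpha subunit of receptors for vitronectin, fibronectin and latent TGF-beta, also fell. It had 566.1, 534.8, 594.2 and 558.8 normalized counts in BSA and 410.6, 421.5, 486.4 and 394.1 in PAL. Every PAL library was below every BSA library, and the log2 fold change was -0.39 (SE 0.09, *Padj* = 0.000316). *Itga5*, whose product is the classical fibronectin receptor subunit, varied from 94.7 to 266.0 normalized counts within BSA and from 168.0 to 262.8 within PAL, and did not pass (0.32, SE 0.33, *Padj* = 0.654).

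*Itga3* (ENSMUSG00000001507; chromosome 11, 95044474 to 95076801, − strand), the subunit of a receptor for laminins with the *Lama5* or *Lama3* chain, moved the other way. Its normalized counts were 1677.8, 1477.7, 1161.4 and 1448.6 in BSA and 2415.8, 1973.5, 2336.9 and 2106.7 in PAL. All PAL libraries were higher, and the log2 fold change was 0.62 (SE 0.09, *Padj* = 8.28e-10). *Itga6* and *Itga7*, the other subunits for laminins, did not pass (0.18, SE 0.11, *Padj* = 0.344, and -0.14, SE 0.18, *Padj* = 0.728). Within a library, the ratio of *Itga3* to *Itga1* normalized counts was 2.04 ± 0.32 in the 4 BSA libraries and 5.82 ± 0.91 in the 4 PAL libraries (SD), with ranges of 1.57 to 2.24 and 5.01 to 6.99.

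*Itgb1*, the beta subunit shared by these receptors, rose slightly. It had 1374.6, 1453.5, 1513.1 and 1461.3 normalized counts in BSA and 1493.1, 2030.9, 1715.3 and 1728.9 in PAL. The groups overlapped in 1 PAL library, and the log2 fold change was 0.27 (SE 0.08, *Padj* = 0.00918). The beta subunits *Itgb3*, *Itgb4*, *Itgb5* and *Itgb6* had log2 fold changes between -0.08 and 0.30 and did not pass. For *Itgb4*, the partner of *Itga6* in hemidesmosomes, the 95% interval of the log2 fold change was -0.12 to 0.37.

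**Figure D2:**
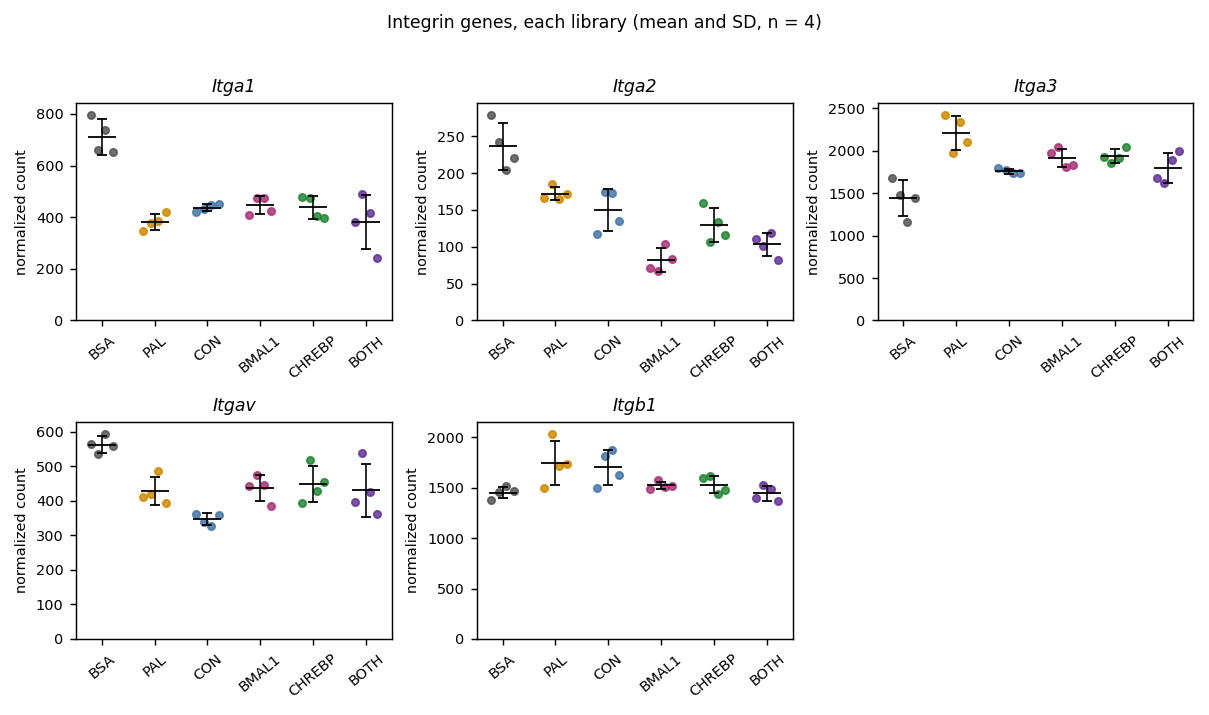
Normalized counts of 5 integrin genes in each library by group, with the mean and SD of 4 libraries, on axes that start at 0. For *Itga1* the BSA libraries sit between 650.7 and 793.9 and all 20 palmitate libraries at or below 490.6, whereas for *Itga3* the PAL libraries sit above the BSA libraries.

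Of the type IV collagens, *Col4a1*, *Col4a2* and *Col4a5* fell with palmitate and *Col4a6* did not pass. *Col4a1* and *Col4a2* are a divergent pair on chromosome 8 (ENSMUSG00000031502, 11198423 to 11312826, − strand, and ENSMUSG00000031503, 11312805 to 11449287, + strand), and their products assemble in the same trimer. *Col4a1* had 2215.6, 2389.6, 1946.8 and 1990.4 normalized counts in BSA and 1776.9, 1684.9, 1732.0 and 1873.5 in PAL, a log2 fold change of -0.27 (SE 0.07, *Padj* = 0.00282). *Col4a2* had 1053.4, 1120.8, 980.2 and 885.6 in BSA and 771.0, 774.5, 823.0 and 841.9 in PAL, a log2 fold change of -0.33 (SE 0.08, *Padj* = 0.00083). Neither gene had a PAL library as high as the lowest BSA library. The ratio of *Col4a1* to *Col4a2* normalized counts was 2.12 ± 0.11 in the 4 BSA libraries and 2.20 ± 0.08 in the 4 PAL libraries (SD), with overlapping ranges.

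*Col4a5* (ENSMUSG00000031274; chromosome X, 141475385 to 141689234, + strand), a chain of the specialized type IV collagen that is mutated in Alport syndrome, fell the most of the collagens called. It had 222.7, 187.6, 260.6 and 253.2 normalized counts in BSA and 170.3, 137.8, 147.6 and 153.9 in PAL. The groups did not overlap, and the log2 fold change was -0.59 (SE 0.14, *Padj* = 0.000358). Its usual partner *Col4a6*, whose start lies 1308 bases away on the other strand, had a mean of 26.8 normalized counts in these libraries and did not pass (-0.11, SE 0.32, *Padj* = 0.907). *Col18a1* had 2297.8, 2348.0, 2018.0 and 1891.4 normalized counts in BSA and 1811.2, 1863.9, 1749.9 and 1700.1 in PAL, a log2 fold change of -0.26 (SE 0.07, *Padj* = 0.0048). *Slc19a1*, which overlaps *Col18a1* on the other strand, did not move with it (0.01, SE 0.11, *Padj* = 0.989).

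*Col12a1* (ENSMUSG00000032332; chromosome 9, 79598991 to 79718831, − strand) was the only collagen called higher. Its normalized counts were 990.9, 940.0, 899.9 and 930.8 in BSA and 1262.0, 1197.0, 1101.4 and 1351.8 in PAL. All PAL libraries were above all BSA libraries, and the log2 fold change was 0.39 (SE 0.07, *Padj* = 5.33e-06). The remaining collagens with a mean above 50 normalized counts in this fit were *Col27a1*, *Col16a1*, *Col15a1* and *Col7a1*. Their log2 fold changes ran from -0.32 to 0.33 and none passed.

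**Figure D3:**
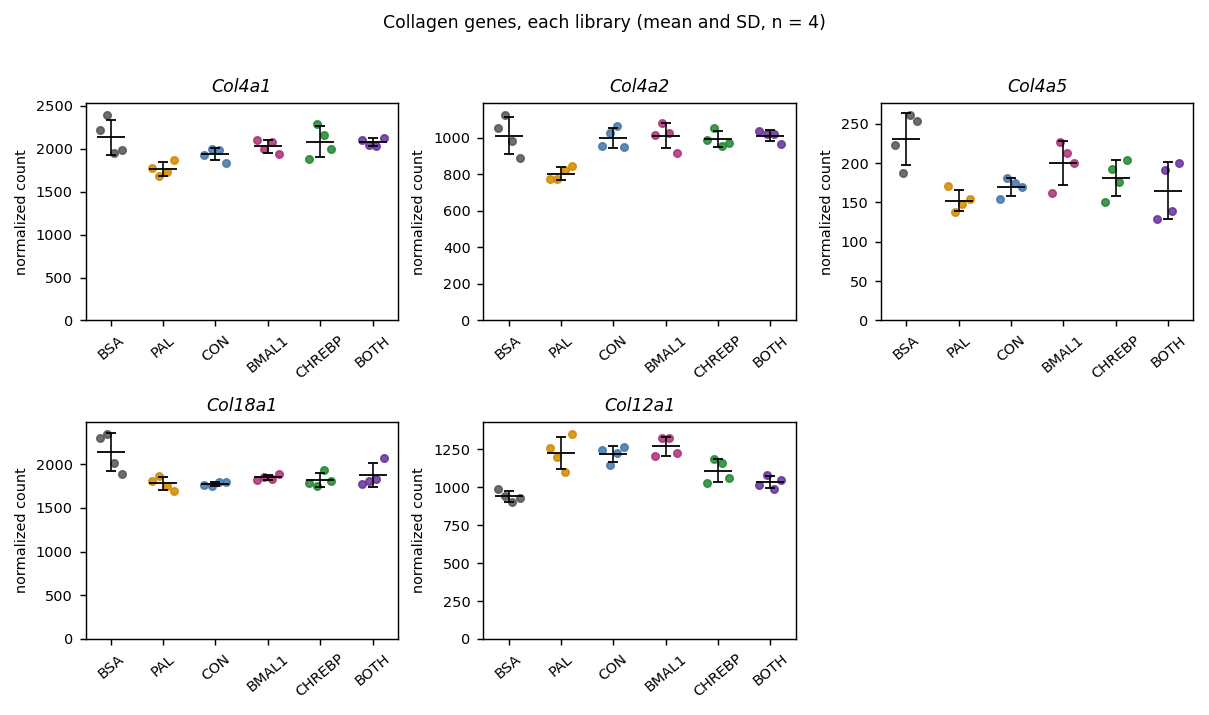
Normalized counts of 5 collagen genes in each library by group, with the mean and SD of 4 libraries, on axes that start at 0. PAL libraries are below BSA libraries for *Col4a1*, *Col4a2*, *Col4a5* and *Col18a1* and above them for *Col12a1*, which is lower again in BOTH than in CON.

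Of the 8 laminins tested, *Lama5* and *Lamb3* fell and none rose. *Lama5* (ENSMUSG00000015647; chromosome 2, 180176373 to 180225859, − strand), the alpha chain of the laminins of mature epithelia, had 1350.6, 1382.9, 1303.0 and 1478.3 normalized counts in BSA and 1204.0, 1236.2, 1131.6 and 1282.7 in PAL. The groups did not overlap, but the log2 fold change of -0.17 (SE 0.07, *Padj* = 0.072) was close to the threshold. The call was lost without BSA replicate 1, 2 or 4 or PAL replicate 1 or 3 (*Padj* up to 0.256). *Lamb3* had 269.8, 332.7, 345.4 and 263.1 normalized counts in BSA and 253.5, 249.5, 267.2 and 198.2 in PAL, with an overlap of 1 PAL library. Its log2 fold change was -0.33 (SE 0.13, *Padj* = 0.074), and the call was lost without BSA replicate 2 or 3 or PAL replicate 2 or 4 (*Padj* up to 0.314). With the replicate number as a term in the fit, neither *Lama5* nor *Lamb3* was called (*Padj* = 0.136 and 0.155). *Lamb2* and *Lamc1*, the other chains of laminin-521, did not pass (-0.15, SE 0.07, *Padj* = 0.181, and -0.06, SE 0.08, *Padj* = 0.757).

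Counts of *Lamb3* (ENSMUSG00000026639; chromosome 1, 193207699 to 193343878, + strand) need care, because *G0s2*, an inhibitor of lipolysis with a mean of 74.2 CPM, lies inside it on the other strand and the use of strand in counting is not given in the sources used here. In PAL against BSA *G0s2* fell with a log2 fold change of -0.43 (SE 0.09, *Padj* = 4.49e-05). Reads of the 2 genes cannot be told apart without strand.

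**Figure D4:**
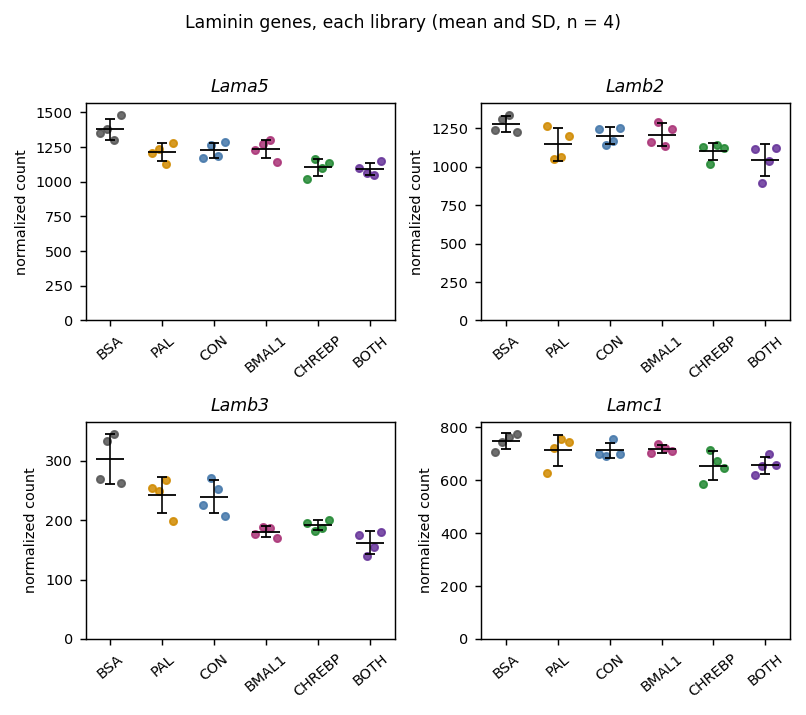
Normalized counts of 4 laminin genes in each library by group, with the mean and SD of 4 libraries, on axes that start at 0. *Lamb3* means fall from 303 in BSA and 239 in CON to 162 in BOTH, while *Lamc1* means stay between 655 and 748.

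For 3 of the 41 genes tested over all groups, *Itga1*, *Itga2* and *Lama5*, the 4 BSA libraries lay above all 20 libraries with palmitate, transfected or not, and for none below them. That is 7.32% of these genes beside 2.67% of all 14511 genes. *Itga1* ran from 650.7 to 793.9 normalized counts in BSA and from 242.9 to 490.6 in the palmitate libraries, with BOTH replicate 4 the lowest. *Lama5* ran from 1303.0 to 1478.3 in BSA, and its highest palmitate library had 1299.5, so that the gap was narrow. The 250 bases before the start of these 3 genes are shown because they are the members that separated carrier from palmitate throughout. They come from RefSeq on GRCm38.p6, are written 5′ to 3′ on the strand of the gene, overlap no annotated exon, and carry in capitals the GC box (CCGCCC, or GGGCGG on the other strand), a site bound by factors of the Sp family.
*Itga1*, chr13:115101965-115102214: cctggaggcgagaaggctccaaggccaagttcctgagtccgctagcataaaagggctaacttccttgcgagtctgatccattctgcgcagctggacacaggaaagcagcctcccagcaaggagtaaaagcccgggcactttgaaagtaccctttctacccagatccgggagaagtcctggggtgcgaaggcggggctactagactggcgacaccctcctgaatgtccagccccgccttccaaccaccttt
*Itga2*, chr13:114932101-114932350: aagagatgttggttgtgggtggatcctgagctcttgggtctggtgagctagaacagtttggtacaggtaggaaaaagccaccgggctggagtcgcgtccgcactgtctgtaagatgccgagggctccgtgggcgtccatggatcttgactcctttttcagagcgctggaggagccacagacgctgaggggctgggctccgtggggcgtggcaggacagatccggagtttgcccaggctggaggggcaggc
*Lama5*, chr2:180225860-180226109: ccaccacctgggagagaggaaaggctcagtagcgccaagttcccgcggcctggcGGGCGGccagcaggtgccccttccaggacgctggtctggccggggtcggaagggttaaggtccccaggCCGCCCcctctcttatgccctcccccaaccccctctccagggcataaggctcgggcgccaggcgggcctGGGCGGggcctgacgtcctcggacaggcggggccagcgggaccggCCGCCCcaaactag
The *Lama5* stretch held 4 GC boxes and 72.4% G or C, while the *Itga1* and *Itga2* stretches held none and 57.6% and 60.8% G or C.

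Start regions were available for 29 of the 41 tested genes, in 34 windows from 250 bases before to 50 after a start. The GC box was found on either strand in 19 of the 34 windows (55.9%), in 18 genes, beside 35.7% of 32851 windows of all genes. The E-box CACGTG, the letters bound by BMAL1 with its partner CLOCK, was in 0 of 34 windows and in 7.2% of all windows. TATAAA, the core of the TATA box, was in 1 window beside 13.6% of all, and TGANTCA, the letters of AP-1 sites, in 2 beside 7.8%. These are matches of letters in short windows and do not bear on binding, and the windows of *Col4a1* and *Col4a2* lie in exons of each other. Both strands were searched, and overlaps between motifs were not removed. The 34 windows came from tested genes alone and the 32851 from all genes, tested or not, so that the shares are not like for like.

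Genes that make, modify, bind or cut the matrix were followed as 6 lists, and each list held genes that rose and genes that fell with palmitate. Of collagen processing and cross-linking genes, 2 rose and 2 fell of 23 tested. *Pcolce*, an enhancer of procollagen cleavage, had the largest called rise (log2 fold change 0.60, SE 0.19, *Padj* = 0.0158) and *Colgalt1*, which adds galactose to collagen, the largest called fall (-0.40, SE 0.06, *Padj* = 2.03e-09). Other matrix proteins had the highest share called, with 7 higher and 4 lower of 22 tested. *Nid1*, the nidogen that links laminin to type IV collagen, rose (0.71, SE 0.15, *Padj* = 4.01e-05), and *Postn*, a matrix protein of scars, fell from a mean of 22.0 to 2.81 normalized counts (-2.99, SE 0.62, *Padj* = 5.2e-05). Of other matrix receptors, 1 rose and 3 fell of 15, the ends being *Plaur*, the urokinase receptor (0.22, SE 0.07), and the syndecan *Sdc2* (-0.28, SE 0.09).

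Integrin adaptors and signalling genes split evenly, with 5 higher and 5 lower of 32 and a median log2 fold change of 0.000. *Tln2*, a talin that links integrins to actin, rose (0.64, SE 0.23, *Padj* = 0.0516), and *Lims2*, a partner of integrin-linked kinase, fell (-0.68, SE 0.17, *Padj* = 0.00151). Of matrix proteases and inhibitors, 1 rose and 5 fell of 24. *Adamts4* had the largest fall but few counts, with group means of 7.74 and 1.42. Of TGF-beta ligands, receptors and targets, 3 rose and 6 fell of 22, from *Ltbp1*, which stores latent TGF-beta in the matrix (0.38, SE 0.12, *Padj* = 0.0254), to the co-receptor *Tgfbr3* (-1.03, SE 0.41, *Padj* = 0.094). The background for these counts is the 14.3% of all genes given above.

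With the control esiRNA, 3 genes of these families were called, where plate column and row cannot be told apart from transfection. In CON against PAL, 3 of 39 passed (7.69%, beside 2.51% of all 12928 genes), 1 higher (beside 1.59%) and 2 lower (beside 0.92%). Libraries of PAL and CON lay apart for 5 of 39, beside 7.16% of all genes. The summed level of the hepatocyte markers was 7356 to 7969 CPM in PAL and 7154 to 7340 CPM in CON, and that of 12 interferon-response genes 31.9 to 39.8 and 112 to 938 CPM, neither with overlap, and their part was not tested. This comparison shares the PAL libraries with the one above, so that a high or low PAL library pushes the 2 in opposite directions. *Col4a2* rose from 802.6 ± 35.3 to 997.9 ± 55.0 (normalized counts, SD, 4 libraries a group), with a log2 fold change of 0.31 (SE 0.07, *Padj* = 0.000905). Its partner *Col4a1* did not pass (0.13, SE 0.06, *Padj* = 0.326), and the ratio of the 2 was 1.94 ± 0.06 in CON beside 2.20 ± 0.08 in PAL, without overlap of the libraries.

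*Itga3* fell to 1792.7, 1776.9, 1738.0 and 1733.2 normalized counts in CON, below every PAL library and above every BSA library (-0.33, SE 0.06, *Padj* = 0.000105). *Itgav* had 360.9, 339.2, 326.5 and 360.6 in CON, below every library of PAL and BSA (-0.31, SE 0.09, *Padj* = 0.0529). That call was lost without PAL replicate 3 or CON replicate 2 or 3 (*Padj* up to 0.327). It was also lost with the replicate number as a term in the fit (*Padj* = 0.318). Of the 6 lists, other matrix proteins had 2 lower of 22 tested, other matrix receptors 2 of 15, integrin adaptors 1 of 32 and proteases 2 of 23, beside 0.92% of all genes lower and 2.51% called. No list gene was called higher, and collagen processing (23 tested) and the TGF-beta list (22 tested) had none called. Those named are *Fbln2*, a fibulin of basement membranes (-0.48, SE 0.08, *Padj* = 1.27e-07), *Cd151*, a tetraspanin that associates with *Itga3* (-0.33, SE 0.08, *Padj* = 0.00286), *Actn1*, an actin cross-linker of adhesions (-0.23, SE 0.06, *Padj* = 0.00342), and the protease inhibitor *Serpine2* (-0.42, SE 0.09, *Padj* = 0.000384).

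With *Bmal1* esiRNA, *Itga2* and *Lamb3* fell. In BMAL1 against CON, 2 of 41 genes tested passed, both lower (4.88%, beside 0.49% of all 13883 genes, and 0.324% lower and 0.166% higher). Filtering by the tool on mean count left 19 of the 41 without a *Padj*, and the groups did not overlap for 5 of 41, beside 5.43% of all genes. The summed level of the hepatocyte markers was 7154 to 7340 CPM in CON and 6904 to 7021 CPM in BMAL1, without overlap, and its part was not tested. *Itga2* had 117.6, 174.7, 173.6 and 135.6 normalized counts in CON and 71.9, 66.9, 103.4 and 84.1 in BMAL1. The groups did not overlap, and the log2 fold change was -0.88 (SE 0.18, *Padj* = 0.00141), a fall of 45.7%. It was called in 7 of 8 fits that left out 1 library. Without CON replicate 3 the tool gave it no *Padj* (log2 fold change -0.81, SE 0.20), and over the 8 fits the fold change lay between -1.02 and -0.80. *Lamb3* had 226.2, 270.4, 253.3 and 207.5 in CON and 176.5, 189.1, 187.7 and 170.0 in BMAL1, without overlap (-0.41, SE 0.12, *Padj* = 0.0862). The *Lamb3* call did not hold in edgeR (adjusted p = 0.283) and was lost in 6 of the 8 fits, those without CON replicate 2 or 3 or any BMAL1 replicate. *G0s2* on its other strand had a log2 fold change of -0.01 (SE 0.08) here.

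No collagen was called in BMAL1, and for the main chains the intervals were narrow. The 95% interval of the log2 fold change was -0.06 to 0.19 for *Col4a1*, -0.12 to 0.15 for *Col4a2*, -0.06 to 0.18 for *Col18a1* and -0.07 to 0.19 for *Col12a1*. *Itgav* was higher in BMAL1 than in CON in all 4 libraries, with a log2 fold change of 0.34 (SE 0.12), but did not pass (*Padj* = 0.257). Of the 6 lists, integrin adaptors and signalling had 1 gene called of 33 tested and the lists of 24, 23, 15, 27 and 22 tested genes had none, beside 0.49% of all genes. It was *Pxn*, the focal adhesion adaptor paxillin (0.29, SE 0.09, *Padj* = 0.0963).

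With *Chrebp* esiRNA, *Itgav* was called higher and *Lamb3* lower than in CON, and neither move was particular to this group. With *Bmal1* esiRNA *Itgav* was also higher than in CON (0.34, SE 0.12, *Padj* = 0.257) and *Lamb3* lower (-0.41, SE 0.12, *Padj* = 0.0862). For *Itgav*, CON was itself below PAL (-0.31, SE 0.09, *Padj* = 0.0529). In CHREBP against CON, 2 of 41 genes passed (4.88%, beside 3.42% of all genes), 1 higher (beside 2.65%) and 1 lower (beside 0.771%), which is close to the background. Filtering on mean count left 7 of the 41 without a *Padj*. CHREBP and CON libraries lay apart for 6 of 41, beside 8.58% of all genes. *Itgav* had 394.3, 519.0, 428.0 and 455.2 normalized counts in CHREBP, all above the CON libraries (0.37, SE 0.12, *Padj* = 0.0425). The call was lost without CON replicate 2 or 3 or CHREBP replicate 2 or 4 (*Padj* up to 0.266). *Lamb3* had 196.0, 182.5, 186.3 and 200.5, all below the CON libraries (-0.34, SE 0.12, *Padj* = 0.0993). This call was at the threshold, did not hold in edgeR (adjusted p = 0.153), and was lost in 7 of 8 fits that left out 1 library, the exception being CON replicate 4. *G0s2* fell in the same comparison (-0.28, SE 0.08, *Padj* = 0.0198).

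All 8 laminins had a log2 fold change below 0 in CHREBP, with a median of -0.23 beside -0.0037 for all genes, but 1 of them passed. Those furthest below 0, *Lama4* (-0.85, SE 0.88) and *Lamc3* (-0.49, SE 0.73), had means of 3.92 and 5.81 normalized counts and no *Padj*. *Lama5*, *Lamb2* and *Lamc1* lay between -0.15 and -0.12. For *Lama5* the groups did not overlap, with 1022.2 to 1163.8 normalized counts in CHREBP and 1173.3 to 1284.5 in CON, and the test gave -0.15 (SE 0.07, *Padj* = 0.263). Of the lists, read beside 2.65% of all genes higher and 0.771% lower, integrin adaptors and signalling had 3 genes higher and 0 lower of 33, *Pxn* among them (0.31, SE 0.09, *Padj* = 0.0114). Other matrix proteins had 2 higher and 1 lower of 23, with *Ccn1*, an integrin ligand, higher (0.29, SE 0.07, *Padj* = 0.00221) and the fibulin *Efemp1* lower (-0.19, SE 0.06, *Padj* = 0.0653). Other matrix receptors had the syndecan *Sdc4* higher (0.35, SE 0.11, *Padj* = 0.0408) and the tetraspanin *Cd9* lower (-0.20, SE 0.06, *Padj* = 0.0393), and collagen processing had *Loxl2*, a collagen cross-linking enzyme, higher (0.39, SE 0.13, *Padj* = 0.0841). The proteases and the TGF-beta list had none called.

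The interferon response moved with *Chrebp* esiRNA and its values belong beside these results. The summed level of 12 interferon-response genes was 2820 to 5784 CPM in CHREBP and 5333 to 8895 in BOTH. It was 112 to 938 in CON and 115 to 187 in BMAL1, while it was 31.9 to 49.97 in the untransfected groups. Its part in the changes of collagen, laminin and integrin genes was not tested.

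The combined esiRNA gave the most calls among the transfected groups. In BOTH against CON, 8 of 41 genes passed (19.5%, beside 9.73% of all genes), 2 higher (beside 5.99%) and 6 lower (beside 3.75%). BOTH and CON libraries lay apart for 7 of 41, beside 10.9% of all genes. Without BOTH replicate 2 there were 0 higher and 6 lower, and without BOTH replicate 4 there were 2 higher and 8 lower. The lower calls dropped to 2 without CON replicate 3, to 3 without CON replicate 2, and to 4 without CON replicate 4, in edgeR and with the 2 groups fitted alone. No call was higher without CON replicate 1, 2 or 4 or BOTH replicate 3, or with the 2 groups alone, and 1 was without CON replicate 3 or BOTH replicate 1 and in edgeR. The summed level of the cholangiocyte markers was 679 to 714 CPM in CON and 496 to 599.8 CPM in BOTH and that of the stellate cell or fibroblast list, in effect *Vim* alone, 2162 to 2248 and 1970 to 2129. Neither overlapped, and their part was not tested. By family the genes called were 1 of 18 collagens, 3 of 8 laminins and 4 of 15 integrins. The median log2 fold change was -0.24 for laminins, -0.11 for integrins and -0.04 for collagens, and -0.0123 for all genes. CON is the reference in this comparison and in the 2 above, so their values are not independent.

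*Lamb3* fell furthest among the laminins called. It had 175.9, 139.7, 154.8 and 179.5 normalized counts in BOTH, all below the lowest CON library (-0.57, SE 0.12, *Padj* = 6.08e-05), and was called in every fit that left out 1 library. *G0s2* fell as well (-0.33, SE 0.08, *Padj* = 0.00155). *Lamb2* had 1111.7, 896.3, 1038.3 and 1119.5 in BOTH and 1243.3, 1143.7, 1165.5 and 1249.8 in CON (-0.21, SE 0.08, *Padj* = 0.0778). *Lama5* had 1097.4, 1066.0, 1049.8 and 1151.2 in BOTH and 1173.3, 1261.7, 1186.9 and 1284.5 in CON (-0.17, SE 0.07, *Padj* = 0.0935). Neither pair of groups overlapped, yet both calls were near the threshold and did not hold in edgeR (adjusted p = 0.104 for *Lamb2* and 0.13 for *Lama5*). The *Lamb2* call was lost without CON replicate 1, 3 or 4 or BOTH replicate 2 or 3 (*Padj* up to 0.283), and that of *Lama5* without CON replicate 2, 3 or 4 or BOTH replicate 1, 2 or 3 (*Padj* up to 0.25). *Lamc1* had a log2 fold change of -0.12 (SE 0.07) and did not pass (*Padj* = 0.393).

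*Col12a1* was the 1 collagen called in BOTH. It had 1247.8, 1145.7, 1228.0 and 1263.7 normalized counts in CON and 1015.5, 1079.2, 987.5 and 1045.5 in BOTH, without overlap (-0.24, SE 0.07, *Padj* = 0.00554), and kept its call whichever library was left out. No type IV collagen passed. The 95% interval of the log2 fold change was -0.03 to 0.22 for *Col4a1*, whose BOTH libraries all lay above the CON libraries, -0.12 to 0.14 for *Col4a2*, -0.33 to 0.25 for *Col4a5* and -0.27 to 0.96 for *Col4a6*.

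Of the integrins, *Itga2* had 110.6, 101.6, 119.0 and 82.6 normalized counts in BOTH (-0.55, SE 0.18, *Padj* = 0.0298), where 1 library was above the lowest CON library. *Itgb1* had 1396.0, 1520.3, 1488.7 and 1364.3 in BOTH and 1496.5, 1814.0, 1874.6 and 1623.1 in CON (-0.24, SE 0.07, *Padj* = 0.0177), with an overlap. Both calls were lost without CON replicate 2 or 3 (*Padj* up to 0.152 for *Itga2* and 0.133 for *Itgb1*). *Itgav* was higher again, at 396.0, 540.1, 426.2 and 362.0 normalized counts (0.31, SE 0.12, *Padj* = 0.0782). That call was lost without any CON replicate or BOTH replicate 2 or 3 (*Padj* up to 0.369). Over the fits that left out 1 library the log2 fold change of *Itgav* lay between 0.185 and 0.393. The last was *Itgb8*, a partner of *Itgav* in the activation of TGF-beta, which was named after its values were seen because its counts were below the minimum for naming. It had 0.0 to 5.8 normalized counts in CON and 5.8 to 14.1 in BOTH (1.84, SE 0.69, *Padj* = 0.0804) and did not pass in edgeR.

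BOTH was also set against each single esiRNA. In BOTH against BMAL1, 3 of 41 genes passed (7.32%, beside 10.4% of all genes), each lower (beside 4.08%, and 6.35% higher), a share below the background. Libraries lay apart for 3 of 41, beside 11.3% of all genes. The summed level of the cholangiocyte markers was 656 to 736 CPM in BMAL1, above all BOTH libraries, and its part was not tested. The genes called were *Col12a1* (-0.30, SE 0.07, *Padj* = 0.000213), *Lamb2* (-0.22, SE 0.08, *Padj* = 0.0524) and *Lama5* (-0.18, SE 0.07, *Padj* = 0.0605). The *Col12a1* groups lay apart, with 1205.5 to 1322.8 normalized counts in BMAL1 against 987.5 to 1079.2 in BOTH. The *Lamb2* call was lost without BMAL1 replicate 2 or 4 or BOTH replicate 2 or 3 (*Padj* up to 0.223), and the *Lama5* call without BMAL1 replicate 1, 2 or 3 or BOTH replicate 2 or 3 (*Padj* up to 0.226).

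In BOTH against CHREBP, DESeq2 called 0 of 41 genes (beside 0.994% of all genes, 0.843% higher and 0.151% lower), and edgeR also called 0. Filtering on mean count left 14 of the 41 without a *Padj*. At an unadjusted p under 0.05 there were 2, *Col4a6* (0.80, SE 0.33, no *Padj*) and *Itga6* (-0.29, SE 0.14, *Padj* = 0.525). Libraries of the pair lay apart for 1 of 41, beside 3.41% of all genes. The widest gap among the genes named in full was that of *Itga2*, at -0.32 (SE 0.18, *Padj* = 0.644). For the interaction of the 2 esiRNAs DESeq2 again called 0 of 41 (beside 1.47%, 1.2% with a positive and 0.267% with a negative value), with 3 at an unadjusted p under 0.05, and edgeR called 0. Here too 14 of the 41 had no *Padj*. The interaction value of *Itga2* was 0.56 (SE 0.26, *Padj* = 0.433), that of *Itgav* -0.39 (SE 0.16, *Padj* = 0.319) and that of *Itga3* -0.23 (SE 0.10, *Padj* = 0.345). For *Itga2*, BOTH against BMAL1 gave 0.33 (SE 0.19, *Padj* = 0.342), so that its falls in these groups were not shown to differ.

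Of the 6 lists in BOTH against CON, read beside 5.99% of all genes higher and 3.75% lower, integrin adaptors and signalling had 5 higher and 2 lower of 33 and other matrix proteins 4 higher and 2 lower of 23. *Tnc*, the matrix protein tenascin-C, had the largest called rise of its list (0.81, SE 0.23, *Padj* = 0.0107), and *Npnt*, nephronectin, a ligand of *Itga8*, the largest called fall (-0.47, SE 0.12, *Padj* = 0.00145). *Fermt2*, the kindlin that activates integrins, rose (0.35, SE 0.09, *Padj* = 0.0013), while *Parvb*, a parvin of the integrin-linked kinase complex, fell (-0.69, SE 0.16, *Padj* = 0.000714). *Cd47*, an integrin-associated receptor, rose from 1254 to 2402 normalized counts in the group means (0.93, SE 0.18, *Padj* = 1.71e-05). *Tgm2*, a cross-linking transglutaminase, rose (0.21, SE 0.05, *Padj* = 0.000177). The other counts were 1 higher and 3 lower of 24 for collagen processing, 2 higher and 0 lower of 15 for other receptors, 0 higher and 2 lower of 27 for proteases, and 1 higher and 1 lower of 22 for the TGF-beta list.

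*Mmp14*, the membrane-bound collagenase, was the 1 list gene called in BOTH against CHREBP (-0.55, SE 0.12, *Padj* = 0.00424), of 27 tested in its list and beside 0.994% of all genes. The mean of its normalized counts was 191 in BOTH beside 280 in CHREBP, and it was 236 in CON and 273 in BMAL1. For the interaction it and *Pxn* were called, both with a negative value, which is 1 of 27 and 1 of 33 tested in their lists and none in the other 4, beside 1.47% of all genes. In BOTH against BMAL1, *Mmp14* was also lower (-0.51, SE 0.13, *Padj* = 0.00124), with overlapping groups. There 3 were higher and 4 lower of 33 integrin adaptors, 3 and 2 of 23 other matrix proteins, and 1 and 3 of 27 proteases. The TGF-beta list had 3 and 1 of 22, other receptors 1 and 1 of 15, and collagen processing 1 and 0 of 24. Of all genes, 6.35% were higher and 4.08% lower.

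**Figure D5:**
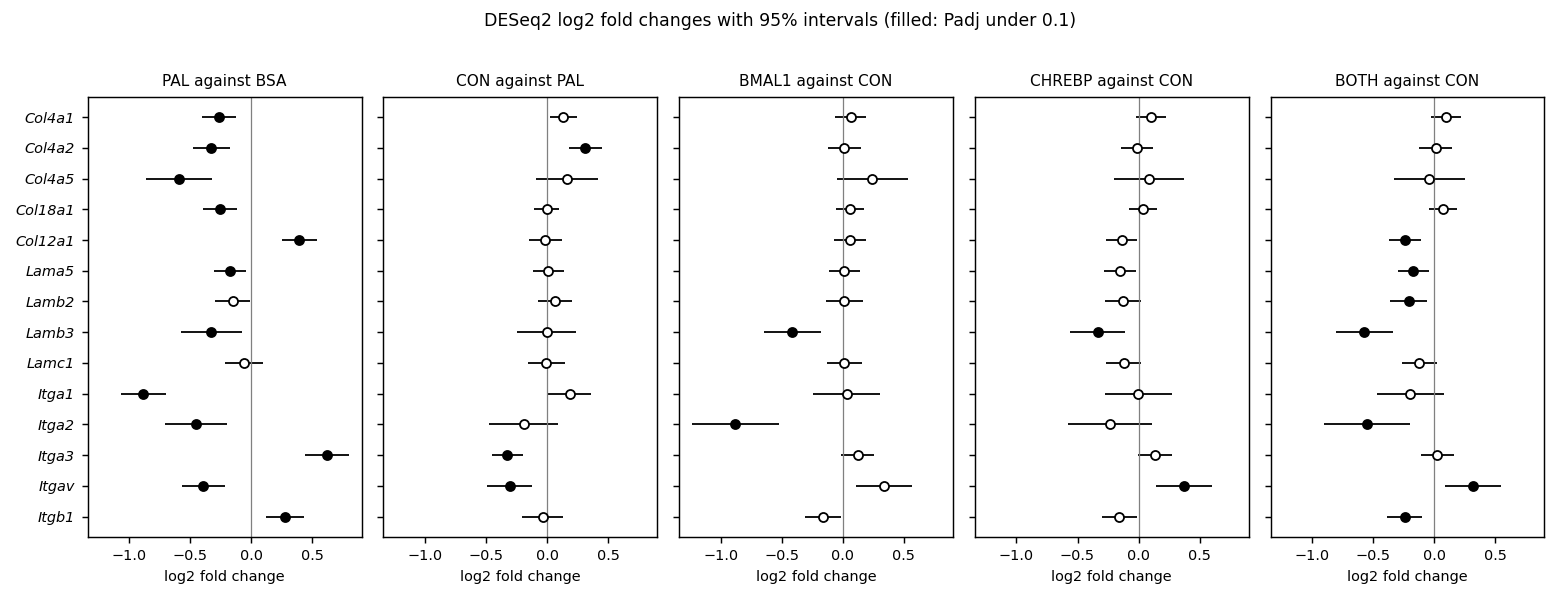
DESeq2 log2 fold changes with 95% intervals of the 14 collagen, laminin and integrin genes named with values, in 5 comparisons, with filled points where *Padj* was under 0.1. *Itga1* at -0.89 and *Itga3* at 0.62 lie farthest from 0 in PAL against BSA, *Itga2* at -0.88 in BMAL1 against CON, and *Lamb3* at -0.57 in BOTH against CON.

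A likelihood ratio test over the 4 esiRNA groups called 6 of 41 genes in DESeq2 (14.6%, beside 9.92% of all genes), namely *Col12a1*, *Itga2*, *Itgav*, *Itgb1*, *Lama5* and *Lamb3*. The matching edgeR test called 3 of them (7.32%, beside 7.81%), *Col12a1*, *Itga2* and *Lamb3*. Over all 6 groups, DESeq2 and edgeR called the same 15 genes (36.6%, beside 24.1% and 20.9% of all genes). They were the named genes other than *Lamc1*, together with *Itga7* and *Itgb8*. *Itga7* ran from 93.8 to 136.2 normalized counts in BSA, from 81.3 to 95.8 in BMAL1 and from 65.3 to 99.7 in CHREBP, and was called in none of the 7 comparisons of 2 groups made here.

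As a share of all gene counts, the 83 genes together made up 0.225% ± 0.009 with carrier alone and 0.217% ± 0.003 with palmitate (SD, n = 4). With esiRNA the share was 0.218% ± 0.003 for *Egfp*, 0.222% ± 0.006 for *Bmal1*, 0.211% ± 0.009 for *Chrebp* and 0.201% ± 0.003 for the pair. The BSA libraries ran from 0.217% to 0.233% and the PAL libraries from 0.214% to 0.222%, so that the total overlapped. Its parts did not all overlap. Laminin genes went from 0.0512% ± 0.0009 in BSA to 0.0454% ± 0.0014 in PAL, whereas integrin genes went from 0.0751% ± 0.0031 to 0.0828% ± 0.0025. Across the esiRNA groups the laminin share was 0.0462% to 0.0476% in CON and 0.0454% to 0.0487% in BMAL1, which overlapped, and 0.0392% to 0.0427% in CHREBP and 0.0371% to 0.0414% in BOTH.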

How the data were processed

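The authors demultiplexed the pooled BRB-seq libraries, aligned reads to mouse genome mm10 with STAR and deposited raw counts per Ensembl gene for 24 libraries. HTSeq and featureCounts are both named for counting, and versions, annotation, strand and the use of molecular identifiers are not given in the sources used here. Libraries held 5399700 to 11237474 gene counts, so that 3 counts correspond to 0.267 to 0.556 CPM. Rows for reads outside genes were left out, among them reads not aligned, 24.9% to 28.0% of each library.

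From the counts, those genes whose counts summed to 25 or more in the fitted libraries were tested with DESeq2 1.42.0 in R 4.3.3 (Wald test, Benjamini-Hochberg *Padj* under 0.1 over all genes tested). PAL against BSA and CON against PAL were fitted on their 8 libraries, and the 4 esiRNA groups on 16. Normalized counts are counts over size factors from all 24 libraries. Alternatives were the quasi-likelihood test of edgeR 4.0.16, TMM factors, no filter, a replicate block, each esiRNA pair fitted alone, and each library left out. The scripts were tested on simulated data, where the DESeq2 likelihood ratio test over all 6 groups exceeded its nominal rate of false calls. The edgeR counts stand beside it for that reason. GENCODE M21 (GRCm38) gave coordinates for all 83 genes.

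Named in full are the 3 genes of each family with the highest mean CPM and, per comparison and family, up to 3 called rises and 3 called falls with a mean of at least 10 normalized counts. From each list come the largest called rise and fall, and some results are not reported here. Other chains of a class were added after their values were seen. The genes and lists were chosen with earlier results of these data known.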

Additional observations from a re-analysis of the deposited data

Results flagged for a closer look

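One value stood apart from its group. *Lamc1*, the gamma chain of laminin-521, had 756.7 normalized counts in CON replicate 3 and 692.6 to 701.1 in the other CON libraries. The gap to the nearest library was 0.867 of the range of the group, above Dixon's 95% critical value for 4 libraries. The 14 named genes were examined in 6 groups each, 84 in all, and chance passes this limit in about 1 of 20 groups.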

How the results depend on the processing

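Replicate numbers were shared by all groups, but in no comparison did the deviations of libraries with the same number correlate over 0.1 for every number. The correlations ran from -0.013 to 0.077 in PAL against BSA, -0.03 to 0.173 in CON against PAL, -0.07 to 0.032 in BMAL1 against CON, -0.28 to 0.058 in CHREBP against CON, 0.023 to 0.223 in BOTH against CON, -0.114 to 0.32 in BOTH against CHREBP and -0.037 to 0.014 in BOTH against BMAL1. With a replicate block as a term, PAL against BSA called 10 genes (3 higher and 7 lower), without *Lama5* and *Lamb3*. The block left 1 lower in CON against PAL (against 2), without *Itgav* (*Padj* = 0.318), 1 lower in BMAL1 against CON (against 2) and 0 lower in CHREBP against CON (against 1). In BOTH against CON and BOTH against BMAL1 the block lost *Lama5* and gained *Col27a1*.

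The edgeR test called 1 lower in BMAL1 against CON, 0 lower in CHREBP against CON, 1 higher in BOTH against CON (against 2) and 3 over the 4 esiRNA groups (against 6). TMM factors and no filter each left 0 lower in CHREBP against CON. Fitting 2 groups alone gave 1 higher in BMAL1 against CON (*Itgav*, against 0), 0 higher in BOTH against CON and 1 lower in BOTH against BMAL1 (against 3), with fewer libraries behind the spread. With 1 library left out, counts ran from 1 to 2 lower in CON against PAL, 0 to 2 lower in BMAL1 against CON, 0 to 1 higher and 0 to 1 lower in CHREBP against CON, 0 to 2 higher and 2 to 8 lower in BOTH against CON, 0 to 1 lower in BOTH against CHREBP, 0 to 1 higher and 1 to 4 lower in BOTH against BMAL1, 0 to 1 for the interaction and 3 to 7 over the 4 groups. The lowest count of lower calls in BOTH against CON came without CON replicate 3. In PAL against BSA they stayed at 3 to 4 higher and 8 to 9 lower, and over all 6 groups at 14 to 17. The cause of these moves was not tested. The alternatives were run for the 29 calls of single genes with values, and none of these changed direction. Of their values 284 kept their side of the threshold and 78 no longer passed.

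Counts over all genes moved by more than 1.5 times in some fits. BMAL1 against CON gave 23 higher and 45 lower, against 4 and 10 in edgeR, 6 and 16 with the block, and 70 and 74 for the pair alone. PAL against BSA gave 853 and 975, against 539 and 649 with the block. CON against PAL gave 206 and 119, against 132 and 54 with the block. CHREBP against CON gave 107 lower, against 184 for the pair alone. BOTH against CON gave 520 lower, against 305 for the pair alone, and BOTH against BMAL1 gave 566 lower, against 297. BOTH against CHREBP gave 117 and 21, against 48 and 5 in edgeR, 90 and 10 with the block, and 75 and 5 for the pair alone. The interaction gave 167 and 37, against 113 and 9 in edgeR. Changing to TMM factors moved the log2 fold change of no collagen, laminin or integrin gene by more than 0.0056.

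Depth limits the genes under the count filter. Of the 83, 24 had no count and 18 too few for the test over all groups, and a count of 0 in 1 library allows up to 0.556 CPM.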
